A study of Zea mays with 50 samples.

Results

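The MYB131-only genes are rows of the deposited table that were detected in both libraries of cells expressing the maize regulator MYB131 and had a mean near 0 over the other libraries. A row was a member if it had at least 1 RPKM (a level: reads per 1000 bases of row and 1000000 reads of the library) in each of the 2 MYB131 libraries and a mean below 0.1 RPKM over the other 48 libraries. Of 30213 rows, 70 met both thresholds. A laccase row, Laccase-13 (GRMZM5G814718), was left out because laccases were treated apart. That left 69 members. The members were thus chosen by their measured RPKM in MYB131 cells and in the other libraries, so the contrast of MYB131 cells with the rest is described for these rows and is not tested.

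The cells were leaf protoplasts of maize inbred B73, which are leaf cells freed of their walls by digestion. They were isolated from leaves of more than 10 dark-grown seedlings 10 to 12 days after germination, and polyadenylated RNA was sequenced in bulk. MYB131 cells expressed MYB131 behind GFP from the 35S promoter and were taken from protoplast preps 2 and 4, with 1 library each. The other 22 regulators, likewise fused to GFP, had 2 libraries each, 11 in preps 1 and 3 and 11 in preps 2 and 4. The control cells expressed GFP alone from the same promoter in all 4 preps, and those of preps 2 and 4 are the control of MYB131. Both libraries of a group come from different preps. The p-values rest on the spread between such libraries pooled over all 25 groups, and not on that of the tested group alone. All cells shared the B73 genotype and the protoplast state, and no anther tissue was sampled. In bulk RNA, fewer cells making a transcript and less RNA per cell cannot be told apart, and the share of cells that took up each construct was not analysed here.

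MYB proteins of the plant R2R3 type bind DNA through a pair of MYB repeats and act mostly as transcription factors. In plants the family is known for control of phenylpropanoid and flavonoid synthesis, the secondary cell wall, and the development of epidermal cells and anthers. Ectopic expression, as used here, puts such a protein into cells that may not make it, so transcripts that appear can include those of genes otherwise silent in the tissue. The series tested putative regulators of the phased small RNAs of the anther, and MYB131 is one of them.

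MYB131 libraries held 10587936 reads in prep 2 and 8246698 in prep 4, against 8802780 and 8852812 in the GFP libraries of the same preps. All libraries held 6830506 to 11875650 reads except those of EREB69, an AP2/ERF-type regulator, with 28153659 and 29950561. The label of leaf cells was checked against 3 mesophyll and 4 bundle sheath genes of maize. Of the mesophyll genes, pdk1 (pyruvate phosphate dikinase) had a median of 151.9 RPKM over 50 libraries and carbonic anhydrase 16.6, but pep1, the PEP carboxylase that defines mesophyll of green leaves, had only 0.373, with 0.134 and 0.573 RPKM in MYB131 cells, against 0.348 and 0.339 RPKM in GFP cells. The 4 bundle sheath medians ran from 4.18 to 31.8 RPKM. The mesophyll sum was 531.1 and 347.9 RPKM in MYB131 cells, against 221.3 and 141.9 RPKM in GFP cells, and nearly all of it was pdk1. That gene stood at 518.5 and 336.1 RPKM in MYB131 cells, against 201.8 and 124.8 RPKM in GFP cells, and was called higher (log2 change 1.39 ± 0.36 SE, limma adjusted p = 0.0204). Carbonic anhydrase stood at 12.4 and 11.3 RPKM in MYB131 cells, against 19.2 and 16.7 RPKM in GFP cells, and was not called (log2 change -0.58 ± 0.25 SE, limma adjusted p = 0.253). The bundle sheath sum lay between 53.8 and 86.0 RPKM in MYB131 cells and between 40.8 and 87.0 RPKM in GFP cells, and none of its 4 genes was called. The part of the pdk1 difference in the members' levels was not tested.

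The same thresholds applied to the other groups found far fewer rows. EREB69 cells had 36 rows of their own kind, OCL4 cells 3, DOF25 cells 2, and HSF2, NAC119, NAC29 and OFP9 cells 1 each. The other 15 regulators and both pairs of GFP libraries had 0. Within the table, 194 rows had a mean below 0.1 RPKM over the 48 libraries outside MYB131, and the members are 69 of them. Rows that low may stand in the table through their values in MYB131 cells, so this is no share of the silent genes of maize.

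The level of the members spanned 2 orders of magnitude in MYB131 cells. Their mean over both MYB131 libraries ran from 1.46 to 126.1 RPKM with a median of 4.74, and 2 members reached 100 RPKM, 8 reached 20, 21 reached 10 and 34 reached 5. In prep 2 they lay between 1.47 and 177.9 RPKM, and in prep 4 between 1.00 and 74.4. The 2 highest rows held 29.8% of the members' summed RPKM. In reads, members had 18 to 2940 in prep 2 and 9 to 922 in prep 4, with medians of 97 and 35. Row lengths had a median of 1320 bases, beside 1616 over all rows. In prep 4, 22 members rested on fewer than 20 reads. Altogether they took 17209 reads of prep 2 and 5760 reads of prep 4, which is 0.163% and 0.0698% of those libraries.

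**Figure D1:**
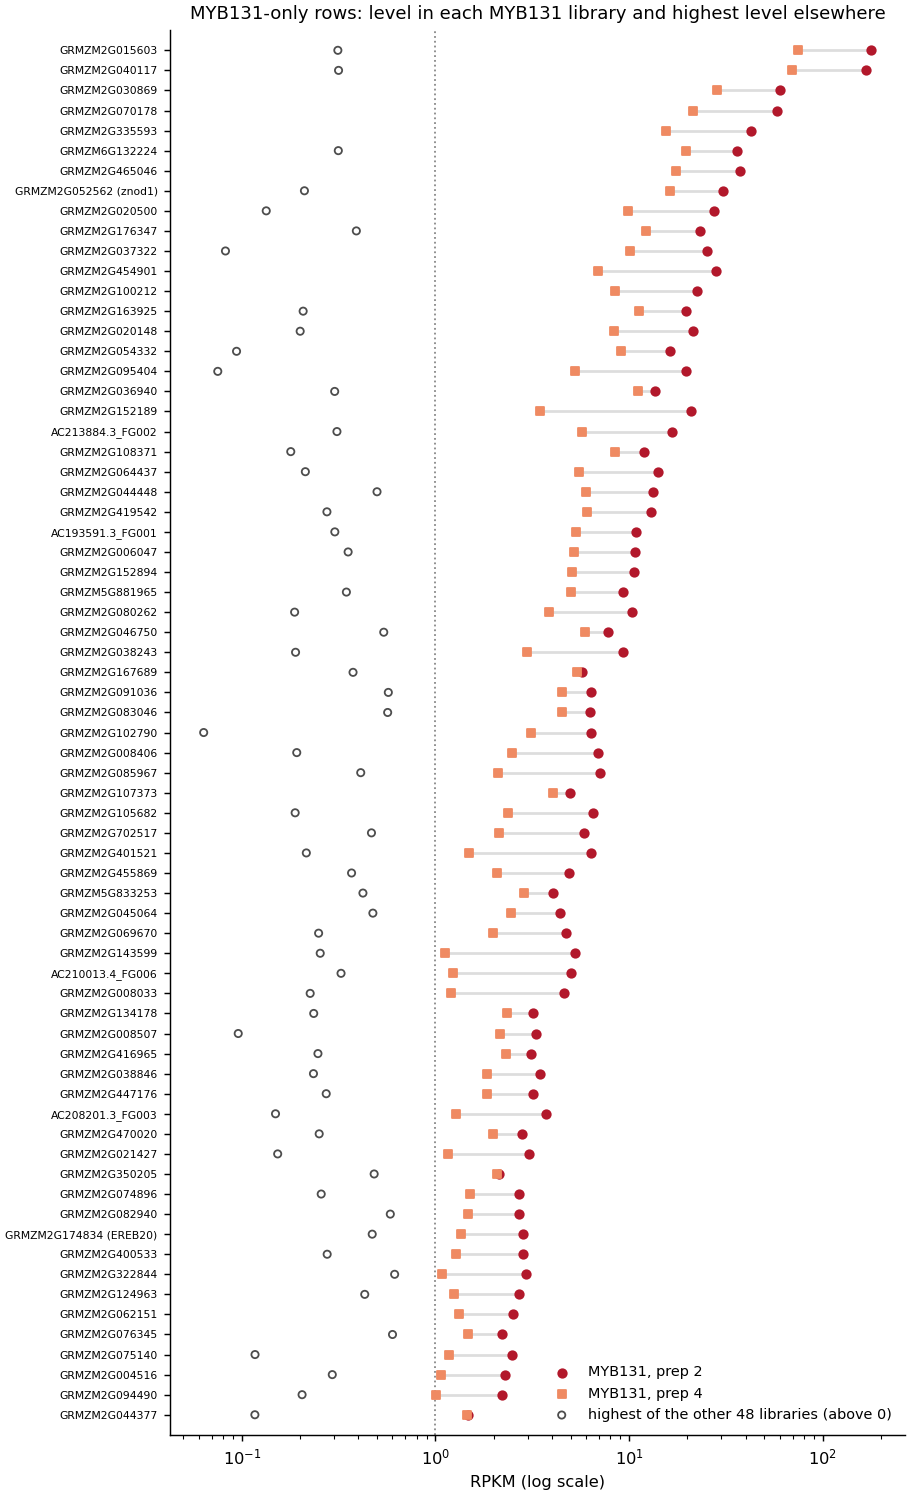
Level of each of the 69 members in RPKM on a log axis, in MYB131 prep 2 (circles) and MYB131 prep 4 (squares), with the highest value in any of the other 48 libraries as an open circle and a dotted line at 1 RPKM. Every open circle lies left of the line, at 0.616 RPKM or less, and the 10 rows without one had no read in those libraries.

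The 2 highest members, GRMZM2G015603 and GRMZM2G040117, lie on 1 reference gene, LOC100279953, and may be counted from the same or near-identical transcripts. GRMZM2G015603 stood at 177.9 and 74.4 RPKM in MYB131 preps 2 and 4, against 0.314 and 0.0763 RPKM in GFP preps 2 and 4. GRMZM2G040117 stood at 167.5 and 68.97 RPKM in MYB131 cells, against 0.316 and 0.0770 RPKM in GFP cells. Their highest values outside MYB131 cells were those in GFP prep 2. The groups thus do not overlap, as the rule all but requires. How the authors counted reads shared between rows is not given in the sources used here, and these 2 levels are uncertain as separate genes.

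No read at all was found outside MYB131 cells for 10 members. GRMZM2G030869 stood at 60.2 and 28.3 RPKM in MYB131 cells, on 524 and 185 reads. GRMZM2G465046 stood at 37.4 and 17.6 RPKM in MYB131 cells, on 520 and 183 reads. These 2 rows differ by 6 reads in all although their lengths are 769 and 1227 bases, so they too may share reads. GRMZM2G070178 stood at 57.8 and 21.4 RPKM in MYB131 cells, and GRMZM2G335593 at 42.5 and 15.4 RPKM. GRMZM2G454901 stood at 27.96 and 6.91 RPKM in MYB131 cells, and GRMZM2G100212 at 22.5 and 8.43 RPKM. All 6 were listed at 0 in the 4 GFP libraries and the 44 libraries of the other regulators. The last 4 of the 10, GRMZM2G152189, GRMZM2G152894, GRMZM2G107373 and GRMZM2G062151, averaged 12.2, 7.83, 4.50 and 1.92 RPKM in MYB131 cells. Against a floor of 3 reads over the 48 libraries together, the mean level in MYB131 cells was at least 310.3-fold higher for GRMZM2G062151 and at least 5604-fold higher for GRMZM2G030869, the ends of the range over the 10 rows. The floor covers counting error only.

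One member bears the gene name znod1, and the reference holds no description of it. This row, znod1 (GRMZM2G052562), stood at 30.4 and 16.2 RPKM in MYB131 cells, against 0 in both GFP libraries of the same preps. Those levels rested on 738 and 295 reads. Over the other 48 libraries znod1 had 35 reads in 19 libraries, and its highest value was 0.211 RPKM in ZHD4 prep 2. The role of znod1 in leaves is not annotated in the table used here.

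A member named as a transcription factor was EREB20 (GRMZM2G174834), whose name places it in the AP2/ERF family that includes ethylene response factors. It stood at 2.82 and 1.35 RPKM in MYB131 cells, against 0 and 0.167 RPKM in GFP cells. It was among the less silent members elsewhere, with 76 reads in 31 of the 48 other libraries and a highest value of 0.472 RPKM in NAC29 prep 3. No library outside MYB131 cells reached either MYB131 value.

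The remaining 4 named members have only marker or clone names, which say nothing of function. TIDP3136 (GRMZM2G095404) stood at 19.7 and 5.24 RPKM in MYB131 cells, against 0 and 0.0752 RPKM in GFP cells. AY110426 (GRMZM2G006047) stood at 10.8 and 5.18 RPKM in MYB131 cells, against 0 and 0.204 RPKM in GFP cells. IDP136 (GRMZM2G124963) stood at 2.69 and 1.25 RPKM in MYB131 cells, against 0.130 and 0 RPKM in GFP cells. The lowest of the named rows, si605013h05 (GRMZM2G076345), stood at 2.20 and 1.47 RPKM in MYB131 cells on 18 and 9 reads, with no read in GFP preps 2 and 4. The other 63 members have identifiers alone. In all, 38 of 69 members (55.1%) matched an entry of the reference, beside 48.3% of all rows.

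The other high members had the same shape, with both MYB131 libraries far above the rest. GRMZM6G132224 stood at 35.9 and 19.7 RPKM in MYB131 cells, against 0 in both GFP libraries, and had 4 reads in the 48 other libraries. GRMZM2G020500 stood at 27.5 and 9.84 RPKM in MYB131 cells, against 0 and 0.0461 RPKM in GFP cells. GRMZM2G037322 stood at 25.4 and 10.2 RPKM in MYB131 cells, against 0 in both GFP libraries. The only read of GRMZM2G037322 among 48 libraries was in GFP prep 1. GRMZM2G176347 stood at 23.3 and 12.3 RPKM, GRMZM2G020148 at 21.5 and 8.40 RPKM, both against 0 in GFP preps 2 and 4. GRMZM2G163925 stood at 19.6 and 11.3 RPKM in MYB131 cells, against 0.138 and 0.0896 RPKM in GFP cells, and GRMZM2G054332 at 16.2 and 9.09 RPKM, against 0 and 0.0714 RPKM. In each of these 7 rows the lower MYB131 value exceeded the highest value of the other 48 libraries.

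That held for all 69 members, partly because the rule demands it of the mean. The highest value of any member outside MYB131 cells was 0.616 RPKM, for GRMZM2G322844 in NAC25 prep 2, so no member reached 1 RPKM elsewhere. The member with the most reads outside MYB131 cells, GRMZM2G350205, had 71 and 52 reads in MYB131 cells, against 148 reads in all over 43 of the 48 other libraries. In the GFP libraries of preps 2 and 4, 39 members were listed at 0 in both, and 32 were listed at 0 in all 4 GFP libraries. The 48 libraries together held 1915 reads on the 69 members among 494687776 reads.

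Some members had equal read numbers. GRMZM2G091036 and GRMZM2G083046 had equal read numbers in all 50 libraries, 28 and 15 of them in MYB131 preps 2 and 4, and GRMZM2G470020 had the same numbers in 48 of the 50. Counting these 3 rows once, and the 2 rows of LOC100279953 once, leaves 66 members. Among the 38 members found in the reference, GRMZM2G038243 and GRMZM2G082940 are next to each other. GRMZM2G038243 stood at 9.29 and 2.98 RPKM in MYB131 cells, against 0.0999 and 0 RPKM in GFP cells, and GRMZM2G082940 at 2.70 and 1.47 RPKM, against 0 in both.

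In 2 cases a member has a neighbour that is no member but was called higher in MYB131 cells. Next to GRMZM2G163925, GRMZM2G463471 stood at 4.95 and 2.56 RPKM in MYB131 cells, against 1.05 and 0.637 RPKM in GFP cells. GRMZM2G130528, 3 genes from GRMZM2G419542, stood at 8.55 and 4.66 RPKM in MYB131 cells, against 0.101 and 0.392 RPKM in GFP cells. Besides the adjacent members GRMZM2G038243 and GRMZM2G082940, these were the only called neighbours within 5 genes on either side of the members that could be placed. In that order 375 rows called higher could be placed. How often other rows have such neighbours was not counted, so no clustering is read from these cases. The gene order is that of another assembly than the authors' build.

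Rows near the thresholds differed little from those on the other side. Just inside the limit on the mean lay GRMZM2G350205 at 0.0974 RPKM, GRMZM2G045064 at 0.0982 and GRMZM2G322844 at 0.0996 over the 48 libraries. Just outside it lay GRMZM2G045096 at 0.108, and GRMZM2G169321 and GRMZM2G122302 at 0.112 each. GRMZM2G122302 stood at 15.6 and 8.97 RPKM in MYB131 cells, above most members. GRMZM2G045096 had the same read numbers as the member GRMZM2G045064 in 47 of 50 libraries, so the limit parts a pair that may share reads. At the limit of 1 RPKM, GRMZM2G094490, GRMZM2G004516 and GRMZM2G322844 lay inside with 1.00, 1.07 and 1.09 RPKM in MYB131 prep 4. GRMZM2G149809 with 0.991, GRMZM2G005991 with 0.978 and whp1, a chalcone synthase gene, with 0.972 RPKM in MYB131 prep 4 lay outside.

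The members were set beside all rows raised in MYB131 cells. In limma on log2(RPKM + 0.5), 28122 rows that reached 1 RPKM in 2 or more libraries were tested against GFP of preps 2 and 4. A call needed an adjusted p (Benjamini-Hochberg) under 0.05 and a log2 change of at least 1 in size. All 69 members passed the filter, through MYB131 alone, and all were called higher, as the rule all but requires. Nothing is read from that count beside the 2.21% of all rows called higher (621 rows) and the 0.142% called lower. The share called higher was 7.02% of rows with a mean of 0.1 to 1 RPKM over the 48 libraries, 1.83% of those at 1 to 10 and 0.506% of those at 10 or more. Below 0.1 RPKM it was 70 of 82 rows, the members among them. Rows of low level can pass the filter through the 2 MYB131 libraries alone. The filter can thus raise the shares at low levels, and nothing is read from their order.

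The row with the largest fitted rise in MYB131 cells was not a member. GRMZM2G457309 (clone name pco108588), singled out after its values were seen, stood at 1550 and 747.7 RPKM in MYB131 preps 2 and 4, against 0 and 0.550 RPKM in GFP cells. Its mean over the other 48 libraries was 0.402 RPKM, above the limit. The reference does not name it MYB131, and whether it is the row of the introduced gene is not shown here.

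Every member was higher in MYB131 prep 2 than in MYB131 prep 4. The median ratio of prep 2 to prep 4 was 2.13, a log2 difference of 1.09 with quartiles of 0.83 and 1.43, and all 69 of 69 were above 1. The ratio lay between 1.5 and 3 in 47 members, below 1.2 in 3 and above 4 in 5. GRMZM2G152189 had the widest gap, with 20.9 RPKM in prep 2 and 3.49 RPKM in prep 4, a ratio of 5.98. GRMZM2G044377 had the narrowest, with 1.47 and 1.45 RPKM. Across the 69 members the log2 levels of both libraries correlated at r = 0.939, a description over rows that share the same pair of libraries and the same lower limit. GRMZM2G457309 had a ratio of 2.07, near the median of the members.

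**Figure D2:**
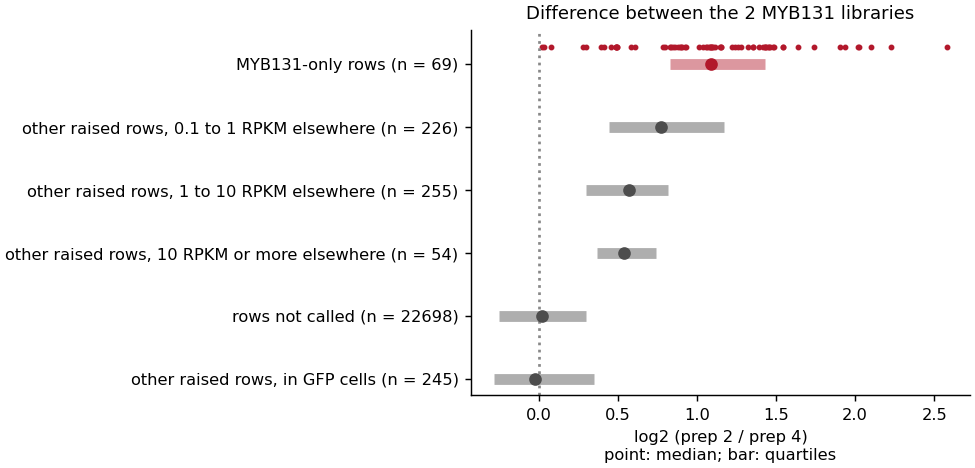
Log2 ratio of prep 2 to prep 4, with the median as a point and the quartiles as a bar. The top row shows the 69 members in MYB131 cells with each member as a small dot, the 3 rows below it the other rows called higher in MYB131 cells by their mean level over the 48 other libraries, then rows not called in MYB131 cells, and last the other raised rows in GFP cells; the median is 1.09 in members and -0.03 in GFP cells.

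The lean to prep 2 was shared by the other raised rows, with smaller ratios there. Those ratios also hold the level present without MYB131, which members nearly lack. The size of a ratio is therefore no measure of whether members depend more on the prep. Of 536 other rows called higher in MYB131 cells with at least 1 RPKM in both of its libraries, 483 (90.1%) were higher in prep 2, with a median ratio of 1.57. The median ratio was 1.71 in rows with a mean of 0.1 to 1 RPKM elsewhere, 1.48 at 1 to 10 and 1.45 at 10 or more. Rows not called split about evenly, with 52.5% higher in prep 2 and a median ratio of 1.02. Among those of the other raised rows with at least 1 RPKM in both libraries of a group, 43.6% to 62.4% were higher in prep 2 in the other 11 regulators of these preps and 48.2% in GFP cells. The 36 EREB69-only rows leaned the same way in EREB69 cells, with 33 higher in prep 2 and a median ratio of 1.70. With 1 library per prep there is no test of these differences, and what differs between the preps was not tested.

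The remaining reads of the members outside MYB131 cells were then compared over the 48 libraries, which the rule limits only in their mean. Reads on the members were scaled to 1000000 reads of the library (RPM). Members had 1625 RPM in MYB131 prep 2 and 698.5 in MYB131 prep 4. The 4 highest of the other libraries were NAC29 prep 3 with 12.3 RPM, NAC25 prep 2 with 9.18, NAC29 prep 1 with 9.15 and NAC25 prep 4 with 6.08. NAC29 and NAC25 are NAC-domain transcription factors of the plant-specific NAM, ATAF and CUC type. The other 44 libraries ran from 1.56 to 4.93 RPM with a median of 3.34, and the 4 GFP libraries among them from 3.00 to 4.74. The NAC29 and NAC25 libraries thus do not overlap the other 44 in RPM, and they were singled out after their values were seen. By summed RPKM of the members the gap was small, with 4.29 in NAC25 prep 4 against 3.87 in GFP prep 4, its control. Whether other rows of such low level also had more reads in these 4 libraries was not tested, so the difference is not shown to be particular to the members.

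**Figure D3:**
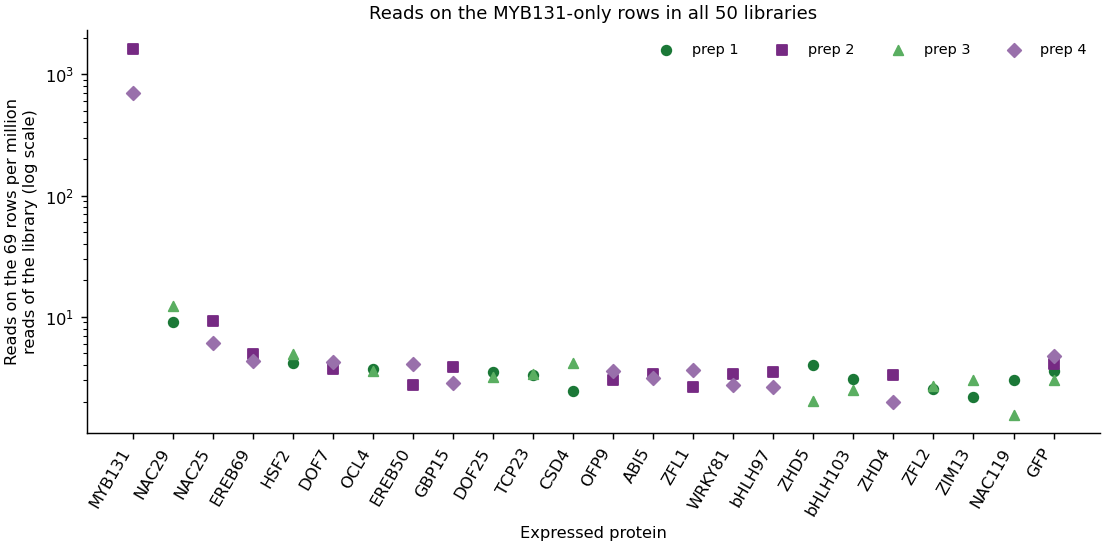
Reads on the 69 members in each of the 50 libraries, in RPM, on a log axis, by expressed protein with GFP at the right and the prep shown by the marker. MYB131 libraries stand at 1625 and 698.5, NAC29 and NAC25 libraries at 6.08 to 12.3, and all others at 4.93 or less.

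These 4 libraries held 350 of the 1915 reads (18.3%) with 7.51% of the depth. The reads were spread over 50 members. GRMZM2G350205 had 15 and 8 reads in NAC29 preps 3 and 1, and 8 and 2 reads in NAC25 preps 2 and 4, the most of any member. EREB20 had 10 and 4 reads in NAC29 preps 3 and 1, and 2 reads in each NAC25 library. The 4 libraries pooled gave EREB20 0.484 RPM, against 0.127 in the other 44. GRMZM2G080262 had 13 reads in the 4 libraries, against 11 in the other 44, 14.6 times the rate. IDP136 had 24 reads and znod1 had 11 reads in the 4 libraries, 2.84 and 5.64 times the rate in the other 44. Some members had lower rates there, such as GRMZM2G054332 with 0.397 and AC210013.4_FG006 with 0.424 times the rate in the other 44, and others had no read. Of the 59 members with any read in the 48 libraries, 12 had their highest value in an NAC29 library and 11 in an NAC25 library. How many other rows have their highest value in these libraries was not counted, so nothing is read from these numbers. Counted as members with at least 1 read, the 4 libraries did not stand apart, with 27 to 35 members against 10 to 39 in the other 44. The deep EREB69 libraries had 39 each. GFP prep 4, with 8852812 reads, had 27, as many as NAC25 prep 4.

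**Figure D4:**
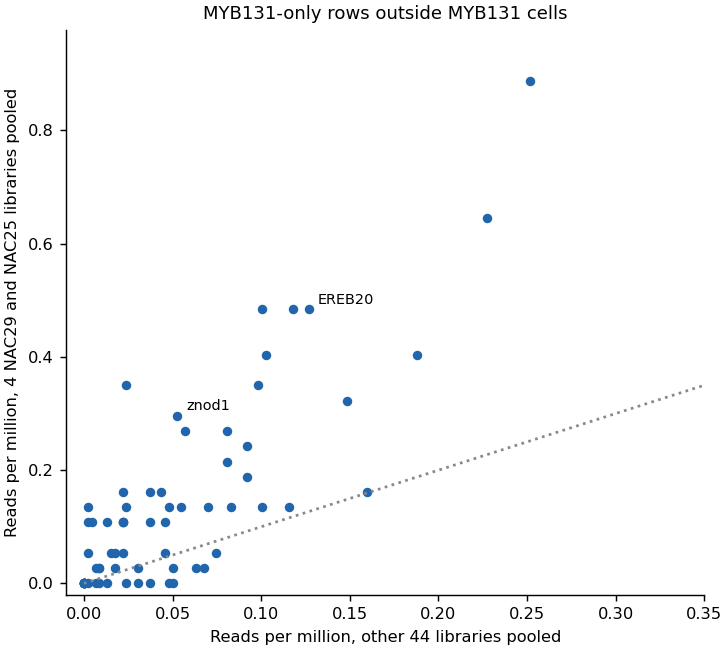
RPM of each member in the 4 NAC29 and NAC25 libraries pooled (vertical axis) against the other 44 libraries outside MYB131 pooled (horizontal axis), with a dotted line of equality and EREB20 and znod1 labelled. Most members lie above the line, EREB20 at 0.484 against 0.127.

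Single members were also fitted against GFP in the other 22 regulators. The limit of 0.1 RPKM on the mean over these same libraries all but fixes the count of calls, since a log2 change of 1 on log2(RPKM + 0.5) needs about 0.5 RPKM above GFP and the highest value of any member was 0.616 RPKM. Limma called 0 of 1518 such fits, beside 0.111% over all rows in either direction, and nothing is read from that count. An unadjusted p below 0.05 was found in 24. NAC29 cells had 6 of 69 members and NAC25 cells 3 of 69 at that level, beside 12.4% and 9.91% of all rows in those cells. The members' SE takes in the gap between the 2 MYB131 libraries. GRMZM2G030869, at 0 in all 48 other libraries, still had an SE of 0.18 in NAC29 cells. The counts therefore cannot be set against the shares of all rows, and nothing is read from them. The calls over all rows were 0.868% higher in NAC29 cells and 0.0533% higher in NAC25 cells. Closest in NAC29 cells was GRMZM2G044448, at 0.499 and 0.428 RPKM in NAC29 preps 3 and 1, with a log2 change of 0.95 ± 0.24 (SE) and a limma adjusted p of 0.0391, just short of the fold limit. With a pseudocount of 0.1 in place of 0.5 it was called, at a log2 change of 2.49 (limma adjusted p = 0.0324). GRMZM5G833253 had a log2 change of 0.84 ± 0.22 in NAC29 cells (limma adjusted p = 0.0538), and EREB20 one of 0.65 ± 0.22 (limma adjusted p = 0.149). In NAC25 cells GRMZM2G082940 and si605013h05 (GRMZM2G076345) had log2 changes of 0.69 and 0.79 with limma adjusted p of 0.177 and 0.295, and GRMZM2G134178 had one of -0.47 with a limma adjusted p of 0.268. Fitted log2 changes understate differences at such low levels.

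By sign, 39 of 69 members had a positive log2 change in NAC29 cells, 6 a negative one and 24 none, and 28 were positive, 18 negative and 23 without change in NAC25 cells. In the other 20 regulators 14 to 24 members were positive. The share of members with a positive change was 56.5% in NAC29 cells, beside 48% of all rows tested, and 40.6% in NAC25 cells, beside 48.3%. The 24 and 23 members without change count in the 69 and lower these shares. NAC29 and NAC25 cells were compared with different GFP libraries, of preps 1 and 3 and of preps 2 and 4.

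GRMZM2G134178 gave 11 of the 24 fits with an unadjusted p below 0.05, the one in NAC25 cells included, each with a negative log2 change. It stood at 3.21 and 2.34 RPKM in MYB131 cells, against 0.235 and 0.153 RPKM in GFP preps 2 and 4, and had 15 reads in 9 of the 48 other libraries. Its GFP values are thus high for this member, and limma-voom on recovered reads called it lower in EREB69 cells (log2 change -3.17, adjusted p = 0.0194). The regulators of preps 2 and 4 share those 2 GFP libraries.

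Either rule limits the level in the other regulator's libraries, so MYB131-only and EREB69-only rows could hardly share a member, and none was shared. In EREB69 cells no MYB131-only row was above 0.289 RPKM in prep 2 or 0.203 in prep 4, and in MYB131 cells the highest EREB69-only row was at 1.51 RPKM in prep 2 and 0.345 in prep 4.

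Other genes of the pathways that plant MYB factors are known for were counted in MYB131 cells against GFP cells, from lists matched by name, to be read beside the 2.21% of all rows called higher and 0.142% called lower. EREB20 was the only member on any of the 11 lists. Of 19 AP2/ERF factors tested, EREB20 and EREB85 were called higher, EREB20 as the rule all but requires. EREB85 stood at 10.3 and 3.75 RPKM in MYB131 cells, against 0 and 0.101 RPKM in GFP cells, and missed membership only by its mean of 0.120 RPKM elsewhere. Of 19 MYB factors 4 were called higher and none lower. The highest was myb2 (GRMZM2G081557), at 46.5 and 27.7 RPKM in MYB131 cells, against 0.151 and 0.587 RPKM in GFP cells. Next came myb31, a gene known in maize as a repressor of lignin synthesis genes, at 27.6 and 11.3 RPKM, against 1.64 and 1.67 RPKM. MYB67 stood at 4.44 and 1.66 RPKM in MYB131 cells, against 0.190 and 0.371 RPKM in GFP cells, and MYB93 at 1.21 and 1.03 RPKM, against 0 in both.

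Of 11 phenylpropanoid genes tested, 2 were called higher and none lower. One was pOMT1 (GRMZM2G383088), by name an O-methyltransferase, at 10.2 and 5.85 RPKM in MYB131 cells, against 1.57 and 1.79 RPKM in GFP cells, and the other was PAL1, phenylalanine ammonia-lyase at the entry of the pathway, at 518.5 and 312.5 RPKM in MYB131 cells, against 122.4 and 101.8 RPKM in GFP cells. Called higher were also 2 of 6 cellulose synthases, 3 of 7 laccases and 1 of 5 flavonoid genes, with none lower. The same held for 1 each of 18 NAC, 18 bHLH and 21 bZIP factors, with none lower. Among the laccases called was GRMZM5G814718, which met the rule and was left out of the members. With 5 to 21 genes tested per list, 1 call is already a larger share than the 2.21% of all rows called higher. List genes of low level elsewhere can also enter the test through the MYB131 libraries alone. No list was tested against that share, and nothing is read from single calls. Of 13 WRKY factors none was called. The medians of the log2 changes lay between -0.11 for laccases and 0.39 for cellulose synthases, beside -0.02 over all rows tested. Of the anther genes matched by name, ocl4 was listed at 0 in both MYB131 and both GFP libraries, and ms32 stood at 15.8 and 17.5 RPKM in MYB131 cells, against 16.2 and 14.8 RPKM in GFP cells.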

How the data were processed

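Polyadenylated RNA of 50 protoplast libraries was analysed from a table of RPKM values that the authors deposited for 30213 rows. Per the submitters' processing notes, the tools were HISAT2 2.1.0, featureCounts of Subread 1.6.3 and edgeR 3.20.9, with genome build B73 RefGen_v3. Whole reads were recovered from the ratios between deposited RPKM values, and 100% of values were whole within 0.05 reads in 30213 of 30213 rows. For rows seen in few libraries the reads are the smallest whole numbers that give a whole row length. The authors' scaling of library sizes is kept in all levels. It bears on ratios between libraries.

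Libraries were grouped by the expressed protein in the labels, with GFP of preps 1 and 3 and of preps 2 and 4 as separate groups. One limma 3.58.1 model under R 4.3.3 on log2(RPKM + 0.5) had 25 groups and 25 residual degrees of freedom, with a variance trend and Benjamini-Hochberg adjustment over 28122 rows per comparison. Fold changes on that scale understate changes of low rows. The fit and the recovery of reads were tested on simulated data. No molecular identifiers are on record, so reads can be copies of 1 molecule.

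The members, lists and alternatives were chosen with earlier results of these data known. Values are given one by one for the 16 members with the highest mean, members with a name, rows that share reads or a reference gene, rows next to the thresholds, and a few chosen after their values were seen. Prep numbers come from the labels and mark a shared protoplast isolation. As a check of that pairing, prep differences of 2 groups correlated across rows at a median of 0.253 in preps 2 and 4 (from -0.05 to 0.474, 78 pairs of groups) and 0.131 in preps 1 and 3 (from -0.21 to 0.497, 66 pairs). Names came from the NAM-5.0 annotation, which matched 14595 rows and held no descriptions, so lists were matched by name. Which genes neighbour each other was read from the gene order of that annotation, whose build is not the authors', and no coordinates are given. Sequences, and with them the promoter and protein features planned, were not analysed here.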

Additional observations from a re-analysis of the deposited data

How the results depend on the processing

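The number of rows called in MYB131 cells against GFP, 661, stayed within 1.5 times under every alternative run except 1 (458 to 784 rows). Without MYB131 replicate 2 it was 420, and leaving out 1 MYB131 or GFP library gave 420 to 734. With prep as a replicate block it was 784 rows, 706 higher and 78 lower, and limma-voom on recovered reads, chosen after seeing the data, gave 662. All 69 members were called in each run that kept both libraries of every group, as the rule all but requires, and nothing is read from that. The block changed no call of a member in any regulator. The number of rows meeting the rule, 69, ran from 47 (a mean below 0.05 RPKM, or at least 2 RPKM in both libraries) to 103 (a mean below 0.2 RPKM), and 63 of the members were among the 74 rows found with a maximum below 0.5 RPKM. It was 90 without MYB131 replicate 4 and 70 without MYB131 replicate 2. Of members called in the other 22 regulators there were 0, but 1 with a pseudocount of 0.1 (GRMZM2G044448 in NAC29 cells, higher) and 1 with limma-voom (GRMZM2G134178 in EREB69 cells, lower). The cause was not tested. By the mean of log2(RPKM + 0.5), the 4 NAC29 and NAC25 libraries remained the 4 highest of 48, and by members counted with a read 2 of them did. All 69 members remained higher in MYB131 prep 2 under 3 other scalings. In the shallowest library, of 6830506 reads, members at a few hundredths of an RPKM rest on 1 read or none, so levels outside MYB131 cells are near the limit of detection.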
